A study of Mus musculus with 26 samples.

Results

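The comparison described here sets preadipocytes that carry an insulin receptor without its C-terminus (∆CT) against preadipocytes with no insulin or IGF1 receptor (DKO), both in the basal state. It uses 6 of the 26 libraries of the series, 3 of each line, chosen by their labelled line and treatment. It covers 15402 genes with more than 0.5 CPM (counts scaled to a common library size) in at least 4 libraries. The cells are mouse brown preadipocytes from newborn animals with floxed *Insr* and *Igf1r*, immortalised with SV40 T-antigen, in which adenoviral Cre removed both receptors. The ∆CT line is the same DKO line after retroviral transfer of a tagged human insulin receptor (B isoform) that lacks 79 residues at the C-terminus. The paper also describes DKO cells given an empty vector, and selection with hygromycin after infection. The titles of the DKO libraries do not say whether those cells carried the empty vector. Confluent cells of both lines were kept without serum for 6 h and received no insulin (0 nM). The other lines, used only to show where ∆CT differs, are DKO cells with the intact human receptor (IR), with a kinase-dead receptor (K1030R) or with a receptor cut to 36 intracellular juxtamembrane residues (JMO), each with 3 basal libraries. Each receptor was studied in 1 cell line, so p-values measure the spread between replicates of a line only. The labels and the paper do not say whether replicates were separate dishes, passages or days. Below, a dish stands for 1 replicate library.

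The insulin receptor is a dimeric tyrosine kinase at the cell surface. On insulin binding its kinase domains phosphorylate each other, the juxtamembrane region recruits the IRS and Shc proteins, and signals pass through PI3K and AKT to metabolism and through the ERK cascade to growth. The C-terminal tail follows the kinase domain and holds tyrosines that become phosphorylated, but it is not needed for catalysis. Brown preadipocytes are fibroblast-like precursors that express IGF1 receptors and insulin receptors, secrete matrix, and can become thermogenic fat cells. No protein sequence of the receptor was among the sequences used here, so none is printed.

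Library totals were 17535582 to 24694828 expected counts in DKO and 19561131 to 21511285 in ∆CT, and the biological variation between dishes of a line, estimated by edgeR as a coefficient, was 4.44%. Mitochondrial transcripts took 2.971 to 3.315% of counts in DKO and 3.319 to 3.459% in ∆CT, ribosomal protein transcripts 2.477 to 2.607% and 2.673 to 2.802%, and the 10 most abundant genes 6.728 to 7.508% and 9.025 to 9.784%. The part of these differences in the results was not tested. Of 13 markers of preadipocytes and fibroblasts, *Pdgfra*, *Pdgfrb* and *Vim* were abundant in both lines, whereas the brown-lineage marker *Ebf2* did not reach the level for testing. Markers of macrophages (*Ptprc*, *Adgre1*), skeletal muscle (*Myod1*, *Myf5*), epithelium (*Epcam*, *Cdh1*) and mature fat cells (*Adipoq*, *Plin1*, *Ucp1*) did not reach it either. Other markers did, with 5 of 9 for macrophages and blood, 1 of 8 for skeletal muscle, 1 of 6 for epithelium and 1 of 7 for mature fat cells. So did 5 of 7 for smooth muscle and pericytes, summing to 659 to 672 CPM in DKO and 495 to 523 CPM in ∆CT. The sum is weighted to *Acta2*, with means of 467 CPM in DKO and 317 CPM in ∆CT. By the tests given below, 3 of the 5 were higher in ∆CT and 2 lower. Against a minimum of 1.5-fold 2 were higher and 0 lower, and the median log2 difference was 0.22. For tendon and cartilage 5 of 6 were tested, for Schwann and neural cells 3 of 6, and for endothelium 2 of 7.

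Transcripts counted as *Insr*, the insulin receptor itself, were at 24.3, 24.8 and 22.3 CPM in the DKO libraries and at 81.8, 78.8 and 74.6 CPM in the ∆CT libraries. All ∆CT libraries lay above all DKO libraries, with a log2 difference of 1.73 ± 0.05 (SE) and an adjusted p of 1.71e-24 from the quasi-likelihood test of edgeR, adjusted by Benjamini and Hochberg's method, as is every adjusted p below. This checks the labels only in part, because reads were assigned to mouse transcripts while the added receptor is human, and because a floxed gene can leave transcript outside the deleted exon. *Igf1r*, the other inactivated receptor, was at 27.9, 24.7 and 28.6 CPM in DKO and 29.9, 31.1 and 29.9 CPM in ∆CT. The *Igf1r* difference was 0.16 ± 0.05 (adjusted p = 0.0179), and it lost significance without ∆CT replicate 2 (adjusted p = 0.0682) or without DKO replicate 2 (adjusted p = 0.162). It also lost significance with library totals, with DESeq2, and with the libraries of these lines alone, with or without a replicate block.

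Against a minimum change of 1.5-fold, 367 genes (2.38% of those tested) were higher and 602 (3.91%) were lower in ∆CT than in DKO. Without a minimum fold, 3610 genes (23.4%) were higher and 3525 (22.9%) lower, so list members are read below against those shares. Of the genes past 1.5-fold, 272 rose and 485 fell by more than 2-fold, and 85 rose and 201 fell by more than 4-fold. The median log2 difference over all tested genes was 0.01. Protein-coding genes made up 340 of the higher and 533 of the lower genes. In what follows a gene is called when it passed the test against 1.5-fold.

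**Figure D1:**
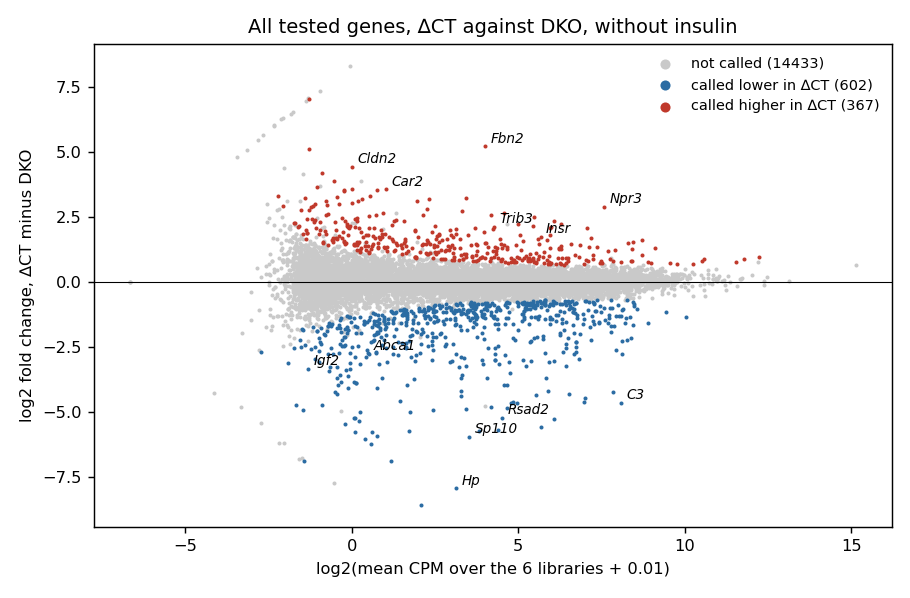
Log2 difference between ∆CT and DKO (vertical axis) against the mean level over the 6 libraries as log2(CPM + 0.01) (horizontal axis) for every tested gene, with the 367 called higher genes in red and the 602 called lower genes in blue. Among the 12 leading genes each way, *Hp* lies lowest at -7.91 and *Fbn2* highest at 5.20.

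The leading genes were taken from called genes with a mean of at least 1 CPM, more than 3 counts in each line and no overlap between the lines. Provisional symbols (Gm, Rik, AC or BC names) were left out. Lack of overlap was thus fixed by the choice, and it held for 7931 of the 15402 tested genes. For list members below, many of them named because they were called, it describes the levels and is no further support. Many of the largest falls were in genes of acute-phase and antiviral responses. *Hp*, which encodes the haemoglobin scavenger haptoglobin, was at 18.4, 16.4 and 17.4 CPM in DKO and at 0.142, 0.0499 and 0 CPM in ∆CT, a log2 difference of -7.91 ± 0.25 (adjusted p = 8.13e-24). *Sp110*, a nuclear body protein induced by interferon, was at 21.6, 23.1 and 23.5 CPM in DKO and 0.285, 0.4 and 0.414 CPM in ∆CT (log2 -5.94 ± 0.20, adjusted p = 7.62e-23). Its relative *Sp140* went from 41.4, 41.6 and 39.6 CPM to 0.901, 0.599 and 0.88 CPM (log2 -5.67 ± 0.15). Outside those limits, *Slfn2*, a Schlafen family gene induced by interferon, had 1 count in ∆CT against 524 in DKO. The ratio was 519, with an exact 95% counting interval from 92.8 to 20550.0. *Csprs*, a gene of the *Sp110* and *Sp140* family listed on an unplaced scaffold, fell by an amount similar to theirs (log2 -5.73 ± 0.19), and these related genes may share reads. *Trim30d* (-5.73 ± 0.41), *Phf11b* (-4.99 ± 0.33) and the nucleic acid sensor *Zbp1* (-4.81 ± 0.22) also fell. *Ltbp2*, which encodes a microfibril protein, was at 49.1, 48.8 and 49.2 CPM in DKO and 1.56, 1.75 and 1.86 CPM in ∆CT (log2 -4.83 ± 0.09, adjusted p = 3.74e-30). *Serpina3n*, an acute-phase protease inhibitor, was at 20.4, 20.5 and 21.7 CPM and 0.522, 0.849 and 0.776 CPM (log2 -4.86 ± 0.17). The dishes of each line lay close together for both genes, and the lines were far apart.

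The largest rises are given by the same limits. *Fbn2*, encoding the microfibril component fibrillin 2, was at 0.87, 0.966 and 0.721 CPM in DKO and 31.5, 28 and 33.7 CPM in ∆CT, a log2 difference of 5.20 ± 0.12 (adjusted p = 4.31e-28). *Npr3*, the clearance receptor for natriuretic peptides, was the most abundant of these genes, at 50.9, 45.5 and 40.2 CPM in DKO and 316, 316 and 373 CPM in ∆CT (log2 2.89 ± 0.08, adjusted p = 1.52e-17). For both genes the lines were wide apart. *Flrt3*, an adhesion protein and guidance ligand, rose from 2.17, 1.82 and 2.24 CPM to 18.1, 17.5 and 23.1 CPM (log2 3.21 ± 0.14). The guidance cue *Sema3d* (3.18 ± 0.20), the phosphatase *Ptprq* (3.12 ± 0.21), the nuclear factor *Tox* (3.17 ± 0.29), the matrix protein *Adamtsl1* (3.11 ± 0.34) and the cadherin *Cdh3* (3.02 ± 0.32) also rose on the log2 scale. Several of the rises began near the limit of detection. The tight-junction gene *Cldn2* had 0.0544, 0.227 and 0 CPM in DKO and 1.56, 2.1 and 2.07 CPM in ∆CT (log2 4.43 ± 0.47). The mechanically gated channel *Piezo2* had 0.272, 0.17 and 0.32 CPM and 2.56, 2.75 and 4.09 CPM (log2 3.54 ± 0.27). The carbonic anhydrases *Car2* and *Car3* had log2 differences of 3.56 ± 0.34 and 3.30 ± 0.32. *Trdn*, the muscle protein triadin, had 0 counts in all DKO libraries and 48 in ∆CT, at least 16.1-fold higher against a limit of 3 counts over the DKO group, and *Gm7030* had 0 counts in ∆CT with 0.652, 0.966 and 0.561 CPM in DKO.

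**Figure D2:**
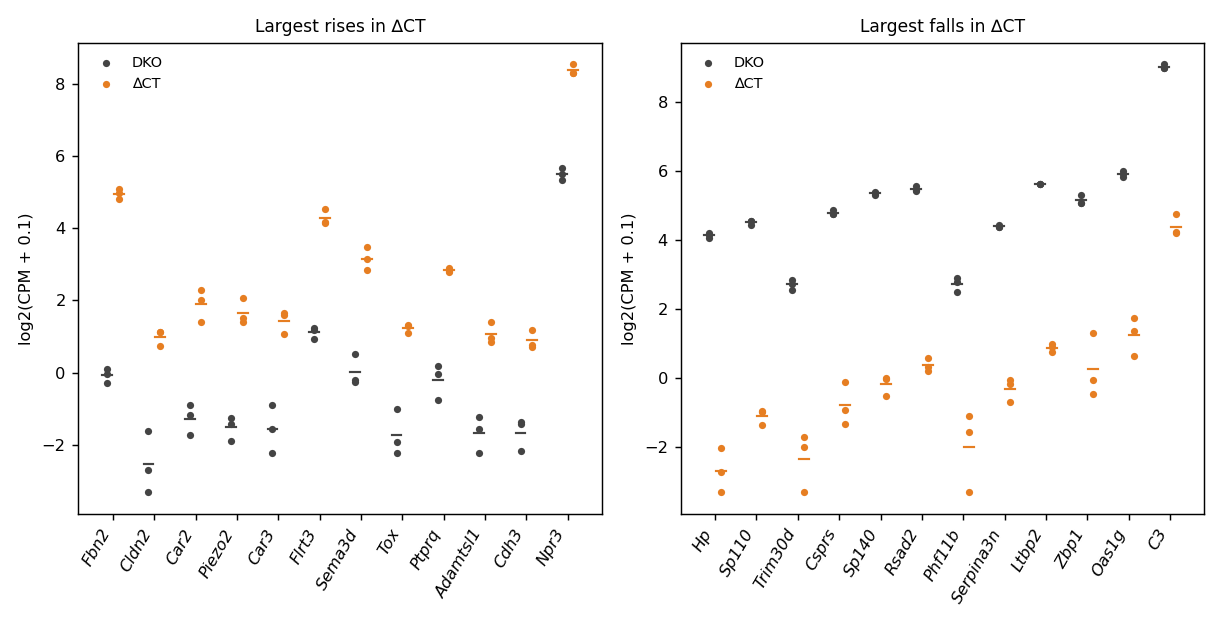
Level in each library, as log2(CPM + 0.1), of the 12 genes with the largest rises (left) and the 12 with the largest falls (right) within those limits of level, count, overlap and symbol. Points are single libraries and short lines are means of the log2 values over 3 libraries, in black for DKO and orange for ∆CT. Lack of overlap between the lines was a condition for choosing the 24 genes.

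Insulin and IGF signalling genes were described by role. Of 41 tested genes 4 were called higher, *Insr* among them, and none lower (2 lower without ∆CT replicate 3 and 1 with library totals), and without a minimum fold 12 were higher and 15 lower, with a median log2 difference of -0.09. *Igf2r*, which removes IGF2 from the cell surface, was at 19.1, 16.3 and 17.7 CPM in DKO and 49.4, 50.8 and 57.9 CPM in ∆CT (log2 1.57 ± 0.06, adjusted p = 1.66e-21). Among the inhibitors, the receptor-binding adaptor *Grb10* rose from 125, 127 and 128 CPM to 288, 282 and 285 CPM (log2 1.17 ± 0.03, adjusted p = 7.71e-26). *Trib3*, a pseudokinase that binds AKT and a target of ATF4, rose from 7.12, 7.44 and 7.13 CPM to 34.7, 31.4 and 27.8 CPM (log2 2.12 ± 0.09). For these 3 genes no dish of 1 line reached the range of the other. Other inhibitors were lower without a call, as *Socs1* fell by 0.90 and *Enpp1* fell by 0.70 on the log2 scale. The docking protein *Irs1* rose by 0.59, from 235, 224 and 229 CPM to 350.1, 350.4 and 335 CPM, whereas *Irs2* was at 40.1, 41.5 and 42 CPM and 41.8, 41.6 and 43.9 CPM with overlapping groups (adjusted p = 0.555). The 20 tested kinases and effectors had 4 members higher and 9 lower, none of them called, and log2 differences between -0.38 and 0.45.

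The ligands moved in opposite directions. *Igf1* was at 3.42, 3.58 and 3.4 CPM in DKO and 12.2, 12.3 and 12 CPM in ∆CT (log2 1.81 ± 0.11, adjusted p = 1.65e-15). *Igf2*, which was low in both lines, was at 0.652, 0.739 and 0.761 CPM in DKO and 0.0948, 0 and 0.104 CPM in ∆CT (log2 -3.33 ± 0.69, adjusted p = 1.46e-04). Neither gene had overlapping groups. The proteins that hold IGFs outside the cell were split, with *Igfbp4* higher (1.91 ± 0.15) and *Igfbp7* lower (-1.48 ± 0.05) on the log2 scale. So were the proteases that cleave such proteins, with *Pappa2* rising from 10.5, 11.1 and 11.9 CPM to 52.3, 50.9 and 54.9 CPM (log2 2.23 ± 0.06) and *Pappa* falling (log2 -1.63 ± 0.22). Of the 11 tested imprinted genes, which carry a parent-of-origin mark, 6 were called higher and 1 lower, with a median of 0.71. *Mest* (1.79 ± 0.23), *Peg10* (1.64 ± 0.05), *Plagl1* (0.71 ± 0.05) and the *Igf2r* antisense transcript *Airn* (0.92 ± 0.14) rose together with *Igf2r* and *Grb10*. *Airn* overlaps *Igf2r* on the opposite strand, and the libraries were strand-specific, while the strand setting of the quantification was not given in the sources used here.

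Interferon-stimulated genes were lower in ∆CT cells. Interferons act through the JAK kinases to assemble a complex of STAT proteins and IRF9, which binds the interferon-stimulated response element in the promoters of antiviral genes. Of 52 tested effectors 44 were called lower and none higher, against 3.91% lower over all genes, and 50 were lower without a minimum fold, with a median log2 difference of -1.64. Summed over the list, the DKO libraries held 8536, 8500.0 and 9509 CPM and the ∆CT libraries 2385, 2357 and 3427 CPM. The lines did not overlap, and replicate 3 was the highest of its line for 44 members in DKO and 50 members in ∆CT. The 44 calls were also counted without ∆CT replicate 3, and in the fits that left out each of the 6 libraries in turn. With the 6 libraries of the lines alone 30 members were called, and 24 when the replicate number was also a block.

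The core of the response element was searched as GAAANNGAA on either strand in RefSeq promoters of GRCm38.p6, from 250 bases before to 50 bases after the start site. Among promoters of genes tested here it was present for 8.76% of genes (949 of 10829), and over the whole table for 9.76%. It was present for 23 of the 39 effectors with a promoter in the table (59.0%), 7 of 27 genes of interferon signalling (25.9%) and 5 of 20 genes of antigen presentation. Among all genes called lower it was present for 92 of 403 (22.8%), and among those called higher for 22 of 252 (8.73%). Such a match is a description of the sequence and not evidence of binding. The promoters of the members with the largest falls that hold the core are shown, from each list, with the matches, which can overlap, in capitals:
Rsad2 (chr12:26456403-26456702, strand -): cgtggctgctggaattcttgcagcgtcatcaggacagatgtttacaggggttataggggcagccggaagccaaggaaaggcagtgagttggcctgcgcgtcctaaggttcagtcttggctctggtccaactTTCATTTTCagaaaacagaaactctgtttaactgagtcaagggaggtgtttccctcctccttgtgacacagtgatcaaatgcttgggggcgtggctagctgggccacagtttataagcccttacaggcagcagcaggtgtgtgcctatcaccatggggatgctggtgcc
Oas1g (chr5:120887564-120887863, strand -): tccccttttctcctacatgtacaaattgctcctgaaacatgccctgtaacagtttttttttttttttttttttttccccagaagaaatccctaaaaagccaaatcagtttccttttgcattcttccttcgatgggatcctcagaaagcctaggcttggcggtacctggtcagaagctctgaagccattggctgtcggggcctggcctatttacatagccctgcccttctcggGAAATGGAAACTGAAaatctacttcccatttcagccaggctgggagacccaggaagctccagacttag
Ifi205 (chr1:174031706-174032005, strand -): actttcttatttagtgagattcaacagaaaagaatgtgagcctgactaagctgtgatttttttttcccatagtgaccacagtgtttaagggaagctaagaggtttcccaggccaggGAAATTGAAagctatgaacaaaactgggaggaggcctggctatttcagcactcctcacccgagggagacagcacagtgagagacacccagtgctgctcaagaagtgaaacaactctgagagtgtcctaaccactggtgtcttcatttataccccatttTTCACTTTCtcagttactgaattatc
Mndal (chr1:173880138-173880437, strand -): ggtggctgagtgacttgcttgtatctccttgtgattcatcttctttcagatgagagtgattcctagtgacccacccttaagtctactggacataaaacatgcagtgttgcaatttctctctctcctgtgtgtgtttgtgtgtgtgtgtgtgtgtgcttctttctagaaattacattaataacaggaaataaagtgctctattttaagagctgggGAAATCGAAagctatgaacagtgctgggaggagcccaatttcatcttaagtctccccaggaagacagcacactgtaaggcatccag
H2-T23 (chr17:36032652-36032951, strand -): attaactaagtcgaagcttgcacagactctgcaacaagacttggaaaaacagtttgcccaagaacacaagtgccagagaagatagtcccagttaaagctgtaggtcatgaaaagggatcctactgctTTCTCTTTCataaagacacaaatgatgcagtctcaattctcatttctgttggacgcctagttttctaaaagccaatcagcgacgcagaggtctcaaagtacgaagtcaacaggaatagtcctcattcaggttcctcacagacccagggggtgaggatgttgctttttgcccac
B2m (chr2:122147437-122147736, strand +): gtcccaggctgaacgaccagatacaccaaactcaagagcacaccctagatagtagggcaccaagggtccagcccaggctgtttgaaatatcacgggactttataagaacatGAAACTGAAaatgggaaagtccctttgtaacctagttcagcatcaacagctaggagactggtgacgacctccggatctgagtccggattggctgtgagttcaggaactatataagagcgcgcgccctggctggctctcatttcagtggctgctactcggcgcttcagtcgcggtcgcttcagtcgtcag

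*Rsad2*, which encodes the antiviral enzyme viperin, was at 42.6, 47.5 and 43.7 CPM in DKO and 1.04, 1.15 and 1.4 CPM in ∆CT (log2 -5.22 ± 0.12, adjusted p = 1.03e-27). The 2′-5′ oligoadenylate synthases, which activate RNase L, included *Oas1g* with 56.6, 60.6 and 63.3 CPM in DKO and 2.47, 1.45 and 3.26 CPM in ∆CT (log2 -4.66 ± 0.17). *Oas2* was at 228, 226 and 285 CPM and 8.11, 6.74 and 18.9 CPM (log2 -4.47 ± 0.24). Of the 9 tested members of this system 8 were called lower. *Trim30a* was at 230.0, 226 and 267 CPM and 7.82, 7.14 and 15.1 CPM (log2 -4.60 ± 0.16). The ubiquitin-like modifier *Isg15* was at 148, 146 and 171 CPM and 13.2, 11.9 and 24.6 CPM (log2 -3.24 ± 0.19), and its protease *Usp18* fell by 1.96. *Ifit1*, which binds foreign RNA, and *Ifit3* were high in DKO. *Ifit1* was at 545, 525 and 578 CPM in DKO and 95.7, 97.5 and 179 CPM in ∆CT (log2 -2.15 ± 0.18), and *Ifit3* had a log2 difference of -2.60 ± 0.21. In *Isg15*, *Ifit1* and *Oas2* the third ∆CT dish stood above the other two and still below all DKO dishes.

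Of 32 tested genes of interferon signalling and nucleic acid sensing 14 were called lower and none higher, with a median of -0.49. The calls were 5 of 9 transcription factors and 9 of 16 sensors and adaptors, and none of 7 receptors and kinases. *Irf7*, the factor that amplifies the response, was at 129, 143 and 171 CPM in DKO and 19.97, 19 and 38.5 CPM in ∆CT (log2 -2.53 ± 0.17, adjusted p = 7.38e-10). *Stat2* was at 427, 417 and 489 CPM and 125, 129 and 188 CPM (log2 -1.59 ± 0.12). *Irf9* (-0.90 ± 0.10) was called lower too, and *Stat3* fell by 0.27 without being called. The DNA sensors of the Ifi200 family, *Ifi205* (-3.69 ± 0.11), *Mndal* (-2.53 ± 0.13) and *Aim2* (-2.62 ± 0.34), fell as well. *Ifnar1*, a chain of the type I receptor, was 0.14 higher and the adaptor *Tmem173* (STING) 0.13 higher on the log2 scale (adjusted p = 0.0312). The *Tmem173* difference lost significance in 10 other settings, with adjusted p from 0.0563 to 0.188 without ∆CT replicate 1 or 3 or DKO replicate 1 or 3.

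Antigen presentation on MHC class I was lower in ∆CT, with 15 of 23 tested genes called lower, none higher and a median of -1.10. The calls comprised 8 of 9 heavy and light chains and 7 of 14 genes of peptide loading and the proteasome. *H2-K1* was at 190.1, 198 and 208 CPM in DKO and 25, 22.7 and 29.5 CPM in ∆CT (log2 -2.95 ± 0.06, adjusted p = 1.09e-23). *B2m*, the light chain, was at 682, 691 and 745 CPM and 234, 223 and 259 CPM (log2 -1.56 ± 0.04, adjusted p = 2.19e-23). Neither gene had overlapping dishes. *H2-Q4* (-3.04 ± 0.07), *H2-D1* (-2.28 ± 0.06), the immunoproteasome subunit *Psmb8* (-2.50 ± 0.28) and the peptide transporter *Tap1* (-1.61 ± 0.09) also fell, and the class I genes are similar enough to share reads. The general chaperones *Calr* (0.37) and *Canx* (0.18) were higher without a call.

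Complement and acute-phase genes had the lowest median of the lists, -2.49, with 14 of 17 tested genes called lower and none higher. *C3*, the central complement protein, was at 507, 504 and 547 CPM in DKO and 18.1, 18.5 and 26.6 CPM in ∆CT (log2 -4.63 ± 0.13, adjusted p = 7.91e-16). *Lcn2*, an iron-siderophore binding protein, was at 55.2, 55.6 and 53.7 CPM and 1.94, 2.5 and 2.23 CPM (log2 -4.62 ± 0.08, adjusted p = 2.32e-31). *Saa3* was at 49, 44.6 and 48.8 CPM and 3.13, 2.15 and 3.83 CPM (log2 -3.97 ± 0.11). Every ∆CT dish lay below every DKO dish for these secreted proteins. *C4b* had 2 counts in ∆CT against 63 in DKO, a ratio of 31.2 with an exact 95% counting interval from 8.29 to 263 that covers counting error only.

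Cytokines and chemokines of the secretory phenotype were mixed, with 11 of 31 tested members called lower and 3 higher (median -0.51). *Il6* was low, at 2.88, 1.99 and 2.56 CPM in DKO and 0.427, 0.3 and 0.362 CPM in ∆CT (log2 -2.75 ± 0.30). The chemokine *Cxcl5* was at 127, 119 and 119.6 CPM and 32, 34.8 and 28.2 CPM (log2 -1.94 ± 0.08, adjusted p = 3.98e-14). *Ccl2*, which attracts monocytes, was at 480.1, 478 and 451 CPM and 257, 253 and 226 CPM (log2 -0.94 ± 0.07). The interferon-responsive chemokines *Cxcl10* (-2.07 ± 0.15) and *Ccl5* (-2.12 ± 0.14) also fell, and *Cxcl1* fell by 0.49 without a call. On the other side were the adhesion molecule *Icam1* (1.60 ± 0.14), the growth factor *Hgf* (1.34 ± 0.21) and the chemokine *Ccl9* (0.78 ± 0.06), which were called higher. With DESeq2, or at an adjusted p threshold of 0.001, 1 member of the list was called higher. In the NF-kappaB pathway 3 of 25 genes were called lower, *Il1rl1* (-2.04 ± 0.14), *Tnfrsf1b* (-0.84 ± 0.05) and *Nfkbiz* (-0.76 ± 0.06), with *Nfkb1* and *Nfkbia* at -0.18 and -0.36.

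**Figure D3:**
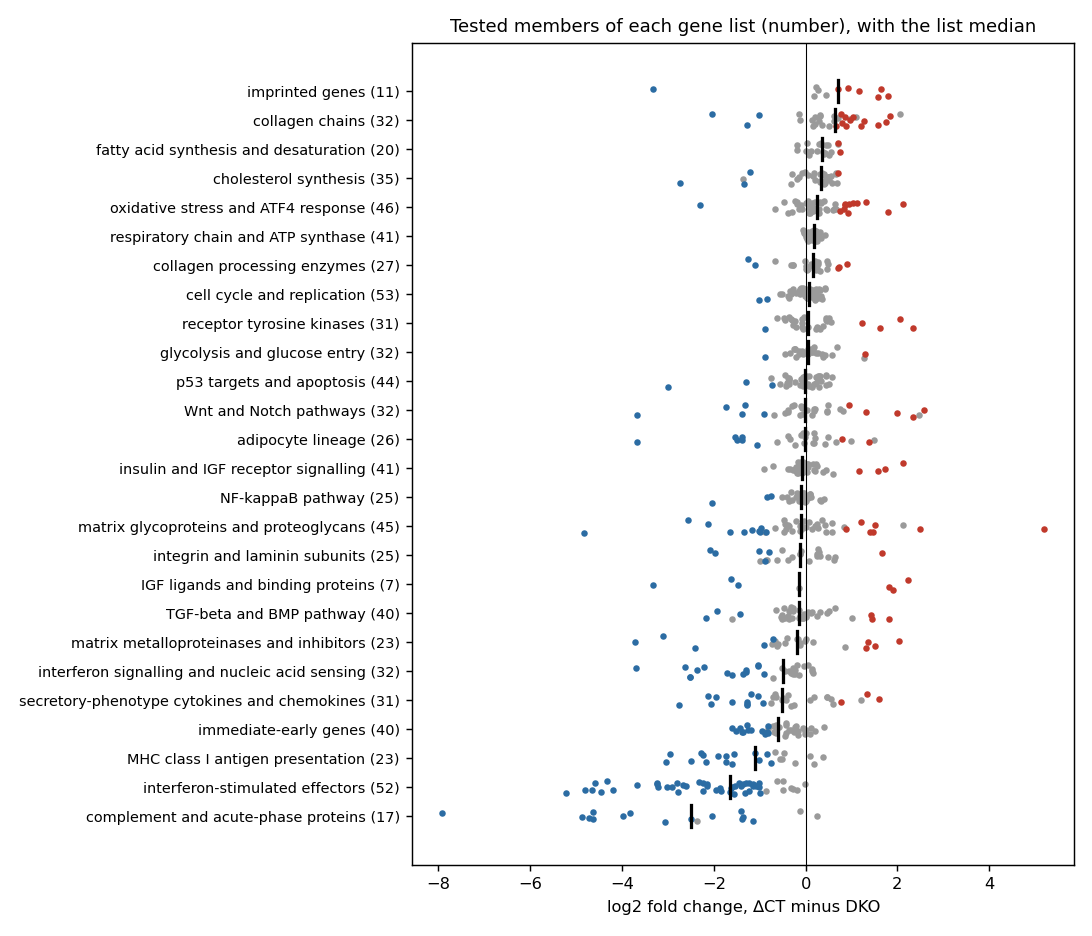
Log2 difference between ∆CT and DKO (horizontal axis) for every tested member of 26 gene lists (vertical axis, with the number tested), in red where called higher, blue where called lower and grey where not called, with black bars at list medians. The medians run from -2.49 for complement and acute-phase proteins to 0.71 for imprinted genes.

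Collagen chains were mostly higher. Of 32 tested chains 12 were called higher and 3 lower, and without a minimum fold 23 were higher and 4 lower, with a median of 0.65. *Col1a1*, a chain of the main fibrillar collagen, was at 3161, 3212 and 3420.1 CPM in DKO and 6524, 6099 and 6455 CPM in ∆CT (log2 0.96 ± 0.04, adjusted p = 2.54e-17). *Col1a2* was at 2429.5, 2453 and 2537 CPM and 4547, 4389 and 4713 CPM (log2 0.88 ± 0.03). *Col3a1* was at 1046, 1068 and 1134 CPM and 1943, 1866 and 2103 CPM (log2 0.86 ± 0.04). Fibrillar chains were called higher in 7 of 10 cases and lower in none. *Col5a1* (0.76 ± 0.03), *Col11a1* (1.28 ± 0.03) and *Col6a2* (1.03 ± 0.05) belonged to the called genes, as did the scarcer *Col2a1* (1.84 ± 0.36), *Col14a1* (1.76 ± 0.36) and *Col8a2* (1.58 ± 0.31). Among the basement membrane and network chains 2 were called higher, *Col8a2* and *Col4a5* (0.79 ± 0.03), and 2 lower. *Col4a1* was at 296, 287 and 314 CPM in DKO and 121, 121 and 129 CPM in ∆CT (log2 -1.28 ± 0.04, adjusted p = 1.36e-25), *Col4a2* had a log2 difference of -1.01 ± 0.04, and the membrane collagen *Col23a1* one of -2.05 ± 0.27. *Col6a1* rose by 0.50 and *Col12a1* by 0.16 while *Col8a1* fell by 0.14, all without a call.

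Enzymes that modify collagen had 3 of 27 genes called higher and 2 lower, but 1 was called higher without ∆CT replicate 3, DKO replicate 1 or DKO replicate 2, and with library totals, DESeq2 or limma. The collagen chaperone *Serpinh1* was at 365, 372 and 398 CPM in DKO and 637, 615 and 626 CPM in ∆CT (log2 0.73 ± 0.04), and the prolyl hydroxylases *P3h1* (0.70 ± 0.05) and *P3h2* (0.89 ± 0.12) rose as well. The cross-linking enzyme *Lox* was at 5351, 5265 and 5155 CPM and 5372, 5544 and 5390.2 CPM, a difference that did not pass the test (adjusted p = 0.242). *Pcolce2* (-1.25 ± 0.07), which aids propeptide removal, and the transglutaminase *Tgm2* (-1.11 ± 0.07) fell, with *Plod2* at 0.27 and *Pcolce* at 0.16. Matrix glycoproteins and proteoglycans had 7 of 45 genes called higher and 10 lower. *Postn*, encoding periostin, was at 52.1, 47.3 and 53.5 CPM and 124, 122 and 178 CPM (log2 1.47 ± 0.14), and the CCN protein *Ccn3* was at 13.6, 13.1 and 13.4 CPM and 74.1, 70.9 and 81.1 CPM (log2 2.49 ± 0.06). *Ccn2* moved oppositely (log2 -2.12 ± 0.10), as did *Mfap5* (-2.55 ± 0.48), tenascin *Tnc* (-0.86 ± 0.07) and osteopontin *Spp1* (-1.65 ± 0.05). Fibronectin, *Fn1*, was among the most abundant transcripts, at 5479.8, 5497 and 5734 CPM in DKO and 5091, 4817 and 5370.1 CPM in ∆CT (log2 -0.13 ± 0.03). *Sparc* rose by 0.46 and *Lum* by 2.13, and *Fbn1* fell by 0.29, *Thbs1* by 0.45, *Eln* by 0.89 and *Dcn* by 0.67, none of them called. *Dcn* lost significance without ∆CT replicate 1 (adjusted p = 0.0955), without ∆CT replicate 2 (adjusted p = 0.0543) or without DKO replicate 1 (adjusted p = 0.220). It also lost significance with DESeq2 or limma.

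Among matrix proteases and inhibitors 4 of 23 genes were called higher and 5 lower. *Mmp13*, a collagenase, was at 7.23, 5.85 and 7.29 CPM in DKO and 0.664, 0.549 and 0.311 CPM in ∆CT (log2 -3.72 ± 0.23), and *Mmp3* was at 9.62, 8.07 and 9.37 CPM and 1.75, 1.45 and 1.91 CPM (log2 -2.40 ± 0.14). *Mmp2* (-0.90 ± 0.06) and the inhibitor *Timp3* (-0.71 ± 0.03) fell, and *Timp1* fell by 0.67 without a call. *Mmp8* had 3 counts in ∆CT and 29 in DKO, a ratio of 9.58 with a counting interval from 2.97 to 49.2. *Adam19* (2.04 ± 0.07), *Adamts5* (1.51 ± 0.04), *Mmp16* (1.35 ± 0.10) and *Adamts1* (1.31 ± 0.04) rose. *Mmp14* had overlapping groups (log2 -0.12 ± 0.04, adjusted p = 0.0209) and lost significance without ∆CT replicate 1, ∆CT replicate 2 or DKO replicate 3 (adjusted p = 0.0972, 0.143 and 0.0938). Of the 25 integrin and laminin subunits 5 were called lower and 1 higher. *Lama2*, a laminin chain of muscle and mesenchyme, rose (log2 1.67 ± 0.07), and *Lama5* (-2.07 ± 0.16), *Lama4* (-0.79 ± 0.06) and the integrins *Itgb8* (-1.02 ± 0.10) and *Itga7* (-0.89 ± 0.08) fell. *Itgb1* rose by 0.24 without a call, and *Itga8* by 0.48 with an adjusted p of 0.0398, which passed the threshold in 7 of 18 other settings.

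Receptor tyrosine kinases other than the inactivated pair had 4 of 31 genes called higher and 1 lower. *Egfr*, the epidermal growth factor receptor, was at 28.8, 28.7 and 27.9 CPM in DKO and 86.8, 83.7 and 91.8 CPM in ∆CT (log2 1.62 ± 0.04, adjusted p = 5.43e-26). The ranges were far apart. *Ror1* (2.35 ± 0.27), *Epha1* (2.06 ± 0.24) and the engulfment receptor *Mertk* (1.23 ± 0.12) rose, whereas *Erbb3* fell (log2 -0.89 ± 0.13), a call absent, among other settings, with DESeq2, with limma, or without ∆CT replicate 1, DKO replicate 1 or DKO replicate 3. The collagen receptor *Ddr2* rose by 0.49, *Pdgfra* by 0.51, *Epha3* by 0.45 and *Ephb3* by 0.27, below the call. *Pdgfrb* was at 618, 639 and 634 CPM in DKO and 624, 609 and 615 CPM in ∆CT with overlapping groups (adjusted p = 0.337).

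Immediate-early genes, which are transcribed within minutes of a growth signal, were lower in ∆CT. Of 40 tested genes 13 were called lower and none higher, and 28 were lower and 1 higher (*Spry1*, 0.41) without a minimum fold, with a median of -0.61. *Fosl1*, an AP-1 subunit, was at 20.4, 19.9 and 19.8 CPM in DKO and 6.92, 8.14 and 4.76 CPM in ∆CT (log2 -1.60 ± 0.13, adjusted p = 2.07e-11). *Jun* was at 103, 101 and 95.1 CPM and 40.4, 44.9 and 38.7 CPM (log2 -1.27 ± 0.07). *Dusp6*, a phosphatase that inactivates ERK and is induced by it, was at 29.9, 29 and 30.9 CPM and 12.6, 11.5 and 9.06 CPM (log2 -1.44 ± 0.09). The AP-1, EGR, phosphatase and other early factors each held called genes, among them *Egr2* (-1.53 ± 0.12), *Klf4* (-1.39 ± 0.08) and *Ier3* (-0.95 ± 0.07). The sum of the list spread widely between dishes, with 2786, 2527 and 2102 CPM in DKO and 2345, 2184 and 1771 CPM in ∆CT, so that the sums overlapped although *Fosl1*, *Jun* and *Dusp6* did not.

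Genes of the cell cycle mostly differed by small amounts, with log2 differences from -1.02 to 0.43. Of 53 tested genes 2 were called lower and none higher. Without a minimum fold 21 were higher and 15 lower, against 23.4% and 22.9% over all genes. By role, 10 of 14 mitosis genes were higher and 1 lower, and 2 of 15 cyclins and CDKs were higher and 9 lower. Of 15 replication genes 6 were higher and 3 lower. *Ccnd2*, cyclin D2, was at 7.45, 6.65 and 6.45 CPM in DKO and 3.79, 3.2 and 3.11 CPM in ∆CT (log2 -1.02 ± 0.12, adjusted p = 1.71e-08). Its partner *Cdk6* was at 101, 96.7 and 94.1 CPM and 54.7, 55.8 and 52.3 CPM (log2 -0.84 ± 0.04). *Ccnd1* (-0.55) and *Ccne1* (-0.52) fell without a call, while *Mki67* (0.30) and *Ccnb1* (0.22) rose. The inhibitors *Cdkn1a*, *Cdkn2a* and *Cdkn2b* had overlapping groups and adjusted p of 0.803, 0.209 and 0.646, as did *Ccna2* (0.15). In the list of p53 targets and apoptosis 3 of 44 genes were called lower. These were the inflammatory caspase *Casp4*, at 28, 27.2 and 25.5 CPM in DKO and 2.94, 3.1 and 4.09 CPM in ∆CT (log2 -2.99 ± 0.10), *Pmaip1* (-1.30 ± 0.14) and *Casp12* (-0.73 ± 0.05). *Mdm2* and *Bcl2* fell by 0.43 and 0.42, and *Fas* had overlapping groups (adjusted p = 0.842).

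Most lipid synthesis genes rose by small amounts. The sterol pathway is switched on by SREBP2, which binds the sterol regulatory element, and the fatty acid pathway largely by SREBP1. Of 35 cholesterol genes 24 were higher and 8 lower without a minimum fold, with 1 called higher and 3 lower and a median of 0.33. The mevalonate steps had 8 of 9 genes higher and the sterol steps 10 of 12. *Hmgcs1*, HMG-CoA synthase, was at 661, 663 and 678 CPM in DKO and 1099, 1116 and 1042 CPM in ∆CT (log2 0.70 ± 0.04, adjusted p = 4.11e-17), though its call against 1.5-fold was lost with DESeq2, limma, unscaled libraries, or without ∆CT replicate 2. *Sqle* (0.48), *Fdps* (0.51) and *Insig1* (0.40) rose without a call. The 3 called lower were genes of sterol export and handling, *Abca1* (-2.74 ± 0.34), the liver X receptor *Nr1h3* (-1.20 ± 0.26) and the lysosomal carrier *Npc2*, which was at 457, 462 and 487 CPM in DKO and 173, 176 and 206 CPM in ∆CT (log2 -1.34 ± 0.04). The letters TCACNCCAC, a sterol regulatory element core, occurred on either strand in promoters of 1.28% of tested genes and of 1 of 26 cholesterol genes with a promoter, *Hmgcs1*, shown with the match in capitals:
Hmgcs1 (chr13:119690101-119690400, strand +): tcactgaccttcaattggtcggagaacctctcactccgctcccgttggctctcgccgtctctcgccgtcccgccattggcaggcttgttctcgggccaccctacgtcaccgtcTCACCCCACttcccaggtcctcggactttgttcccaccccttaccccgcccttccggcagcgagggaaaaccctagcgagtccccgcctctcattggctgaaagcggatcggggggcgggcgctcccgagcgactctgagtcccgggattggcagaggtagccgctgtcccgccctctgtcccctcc

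Fatty acid genes had 2 of 20 called higher and none lower (1 higher without ∆CT replicate 1 or DKO replicate 2, and with library totals or DESeq2), with 15 higher and 1 lower without a minimum fold and a median of 0.36. The desaturase *Scd2* was at 2200.4, 2238 and 2227 CPM in DKO and 3762, 3818 and 3659 CPM in ∆CT (log2 0.75 ± 0.03, adjusted p = 1.32e-19). *Lpin1*, a phosphatidate phosphatase, was at 54.9, 51.1 and 55.5 CPM and 89.9, 88.4 and 85.5 CPM (log2 0.71 ± 0.04). *Scd1* (0.44), *Acly* (0.40) and *Fasn* (0.29) rose without a call. In the adipocyte lineage 2 of 26 genes were called higher and 6 lower, with 1 higher without ∆CT replicate 3, with DESeq2 or with limma. *Pparg*, the master regulator of fat cells, was at 4.57, 4.32 and 4.8 CPM and 4.65, 5.09 and 3.98 CPM with overlapping groups (adjusted p = 0.998). *Cebpa* rose by 0.48 and *Cebpb* fell by 0.62. Those called were *Gata2* (1.39 ± 0.11) and *Zfp521* (0.80 ± 0.06) on the higher side. On the lower side were *Fabp4* (-1.50 ± 0.24), *Ppargc1b* (-1.54 ± 0.30), *Cebpd* (-1.07 ± 0.10), *Klf4*, *Wnt10b* (-1.38 ± 0.13) and *Sfrp1*. Of the 4 tested genes listed as preadipocyte inhibitors, 2 were called lower and none higher. *Gata2* and *Zfp521* were listed as transcription factors, so this count does not cover them.

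Respiratory chain genes were higher without a minimum fold in 30 of 41 cases and lower in none, but none was called, and the largest rise was *Cox8a* at 0.43 (median 0.18). Glycolysis genes had *Aldoc* (1.29 ± 0.07) called higher and *Hk2* (-0.89 ± 0.09) called lower out of 32, the lower call being lost without DKO replicate 1, with DESeq2 or with limma, with *Slc2a1* (-0.24) and *Pfkl* (-0.22) lower without a call and *Ldha* not past the test (adjusted p = 0.689). Of 46 genes of the oxidative stress and ATF4 responses 11 were called higher and 1 lower (median 0.25). Among 15 targets of ATF4, the factor of amino acid and reticulum stress, 7 were called higher and 14 were higher without a minimum fold. *Chac1*, which breaks down glutathione, was at 4.4, 5.23 and 5.33 CPM in DKO and 18.4, 18.8 and 14.9 CPM in ∆CT (log2 1.79 ± 0.11, adjusted p = 9.14e-16). *Asns*, asparagine synthetase, was at 49.1, 53.6 and 49 CPM and 99.6, 98.5 and 89.3 CPM (log2 0.92 ± 0.05). *Slc7a11*, the cystine carrier, was at 11, 9.55 and 8.69 CPM and 26.5, 25.3 and 21 CPM (log2 1.33 ± 0.09). The ranges of all 3 were apart. *Ddit3* did not pass the test (-0.07, adjusted p = 0.205), the NRF2 targets *Nqo1* (0.47) and *Hmox1* (0.15) rose without a call, and the extracellular superoxide dismutase *Sod3* fell from 66.2, 69.6 and 69.9 CPM to 14.3, 14.8 and 12.8 CPM (log2 -2.29 ± 0.07).

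Developmental signalling genes changed in both directions. In the TGF-beta and BMP pathway 3 of 40 genes were called higher, *Tgfb2* (1.44 ± 0.14), *Bmp3* (1.44 ± 0.30) and the BMP antagonist *Chrdl1* (1.83 ± 0.20), and 3 lower, *Bmp6* (-1.92 ± 0.25) and *Inhbb* (-1.43 ± 0.11) among them. *Inhbb*, an activin subunit, was at 72.7, 70.6 and 69.8 CPM in DKO and 27.6, 29.96 and 21.4 CPM in ∆CT, with no overlap between the lines. *Bmp4* rose by 0.46, and *Grem1* and *Inhba* fell by 0.46 and 0.27, without calls. In the Wnt and Notch pathways 5 of 32 genes were called in each direction. The secreted Wnt modulators split, with *Sfrp2* at 21.2, 22.8 and 23.2 CPM in DKO and 109.9, 110.4 and 120.1 CPM in ∆CT (log2 2.34 ± 0.05), *Sfrp1* at 3.15, 4.03 and 3.2 CPM and 0.427, 0.15 and 0.207 CPM (log2 -3.68 ± 0.31), and the Wnt enhancer *Rspo2* at 5, 4.94 and 5.41 CPM and 27.5, 28.4 and 37.1 CPM (log2 2.59 ± 0.13). None of these ranges overlapped. *Wnt2* (1.98 ± 0.35), *Fzd4* (1.32 ± 0.12) and *Dkk3* (0.95 ± 0.08) rose, *Notch4* (-1.73 ± 0.32), *Nkd2* (-1.31 ± 0.14), *Tcf7* (-0.91 ± 0.14) and *Wnt10b* fell, and the Wnt target *Axin2* and *Notch3* had overlapping groups (adjusted p = 0.89 and 0.739).

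Markers of precursor cells differed among themselves. The stromal marker *Ly6a*, also an interferon-stimulated gene, fell (log2 -3.96 ± 0.12), and *Thy1* (1.92 ± 0.08) and *Cd34* (2.03 ± 0.11) rose. *Cd74* (-1.84 ± 0.11) and *Lyz2* (-1.17 ± 0.12), genes of macrophages and antigen-presenting cells, fell. Summed over the 5 tested of 9 macrophage and blood markers, DKO libraries ran from 44.8 to 47.5 CPM and ∆CT libraries from 21.8 to 22.1 CPM, with *Ptprc* and *Adgre1* below the level for testing. In bulk RNA fewer cells of a kind and less RNA per cell cannot be told apart.

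The share of called genes varied between chromosomes, which was not tested. The X chromosome had 33 of 485 tested genes called higher (6.80%, against 2.38% overall) and 5 lower (1.03%, against 3.91%). Among them *Cldn2*, the angiotensin receptor *Agtr2* (3 counts against 61 in ∆CT, a ratio of 20.5 with a counting interval from 6.70 to 102) and the tendon gene *Tnmd* were near 0 in DKO. *Tnmd* had 1 count in DKO and 47 in ∆CT, a ratio of 47.4 with a counting interval from 8.11 to 1912. *Hs6st2*, a heparan sulfate sulfotransferase, was abundant, at 141, 141 and 132 CPM in DKO and 227, 230.5 and 225 CPM in ∆CT (log2 0.73 ± 0.03). The 5 lower genes included *Gdpd2* (-3.10), *Gla* (-0.82), *Il13ra2* (-3.84) and *Xlr* (-1.98) on the log2 scale. Chromosome 12 had the largest share called lower (6.29%). Whole-chromosome medians against DKO were -0.19 for chromosome 12, -0.12 for chromosome 10, 0.17 for chromosome 19 and 0.15 for chromosome 8. For the same chromosomes the medians of ∆CT were -0.01, -0.01, 0.03 and -0.01 against IR. They were -0.04, 0.05, -0.02 and 0.01 against K1030R, and -0.03, -0.02, 0.01 and -0.03 against JMO. Of the 33 X genes called higher than in DKO, 7 were also called higher than in JMO. Different from IR were 3 of them, and none was different from K1030R.

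**Figure D4:**
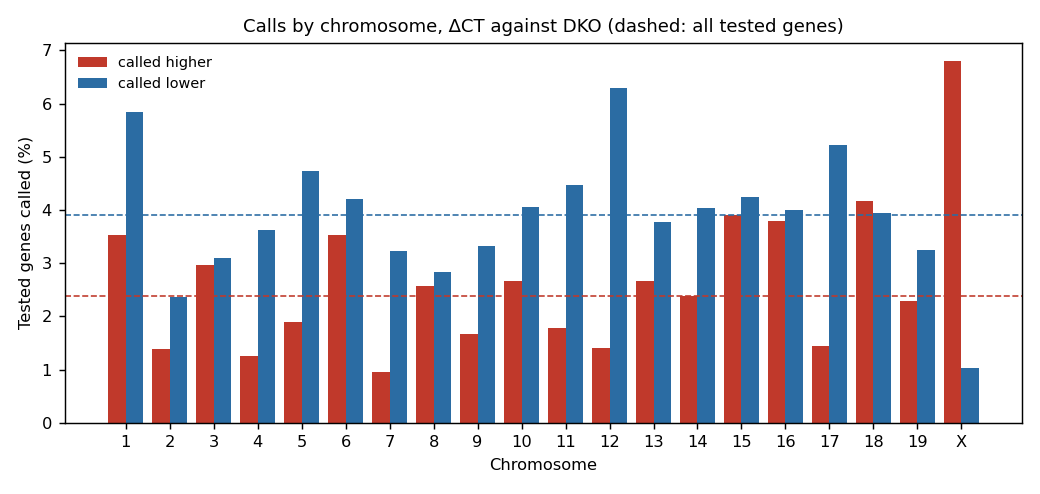
Percentage of tested genes called higher (red) and lower (blue) in ∆CT than in DKO on each chromosome (horizontal axis), with dashed lines at the shares over all tested genes, 2.38% and 3.91%. The X chromosome has the highest share called higher (6.80%), with 1.03% called lower.

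The other receptor lines show where ∆CT differs from cells with another receptor. The comparisons of ∆CT, IR and K1030R with DKO share the DKO libraries, so ∆CT was tested directly against each line. Those direct tests share the ∆CT libraries with each other and with the test against DKO. Against K1030R, 6 genes (0.0390% of those tested) were called. *Ms4a4d*, a membrane protein gene, was at 5.11 ± 0.581 CPM (mean ± SD, n = 3) in ∆CT, 15.3 ± 0.843 in K1030R, 12 ± 1.1 in IR, 23.1 ± 0.861 in JMO and 34.4 ± 0.924 in DKO. It was the only gene called in the same direction against DKO, IR and K1030R, and its levels did not overlap between ∆CT and any of those lines. *Ccnd2* was at 3.37 ± 0.374 CPM in ∆CT and 3.38 ± 0.228 in IR, against 8.18 ± 0.655 in K1030R and 6.85 ± 0.529 in DKO. *Acta2*, smooth muscle actin, was at 317 ± 4.28 CPM in ∆CT and 576 ± 18.4 in K1030R. *Fbn2* was at 31.1 ± 2.89 CPM in ∆CT and 35.7 ± 0.506 in IR, against 11.5 ± 1.07 in K1030R. *Hopx*, a homeodomain protein, was at 8.51 ± 0.432 CPM in ∆CT, 12 ± 1.88 in IR and 3.81 ± 0.492 in K1030R. *Nova1*, a splicing factor gene, was low in all lines and highest in K1030R at 1.26 ± 0.157 CPM.

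Against IR, 109 genes (0.708%) were called, 5 of them higher (0.0325%) and 104 lower (0.675%) in ∆CT. The interferon-stimulated effectors held 28 of the lower genes, out of 52 tested, with a median log2 difference of -1.10. *Mx1*, a dynamin-like antiviral GTPase, was at 2.09 ± 1.1 CPM in ∆CT, 8.82 ± 0.837 in IR, 2.98 ± 0.325 in K1030R and 19.3 ± 2.51 in DKO. *Iigp1*, an immunity-related GTPase, was at 23.8 ± 10.2 CPM in ∆CT, 117 ± 7.98 in IR, 31 ± 3.32 in K1030R and 436 ± 26.5 in DKO. Among these 4 lines the order of means was DKO, IR, K1030R and ∆CT for both genes, and the SDs of ∆CT and K1030R overlapped. The order of ∆CT and K1030R did not hold for every effector, as *Rsad2*, *Oas1g* and *Oas2* had the lower mean in K1030R. Over the 52 effectors the median log2 difference, ∆CT minus K1030R, was -0.17. The count of 28 rested on the libraries used, since it was 15 without ∆CT replicate 1, 14 without ∆CT replicate 2, 39 without ∆CT replicate 3, 15 with the 15 basal libraries and 3 with the libraries of ∆CT and IR alone. None of the 52 was called against K1030R. The 5 genes higher in ∆CT than in IR were the transferrin receptor *Tfrc* (117 ± 21 against 57.5 ± 1.84 CPM), the growth factor *Fgf7* (245 ± 35.7 against 131 ± 3.82 CPM), the peptide receptor *Adcyap1r1* (55.9 ± 11.2 against 17.8 ± 1.45 CPM), the coactivator *Cited1* (4.18 ± 0.831 against 1.37 ± 0.257 CPM) and *Spata5l1* (0.472 ± 0.289 CPM, with 0 in all IR libraries). *Tfrc* and *Cited1* were also called higher than in DKO, at 62.9 ± 4.42 and 0.825 ± 0.167 CPM. Of the 367 genes higher than in DKO 12 were lower than in IR. They included *Postn* (346 ± 22 CPM in IR and 142 ± 31.6 in ∆CT), *Col11a1* (814 ± 6.61 and 482 ± 29.2) and the neuron-derived factor *Ndnf* (26.8 ± 0.528 and 9.17 ± 2.24).

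**Figure D5:**
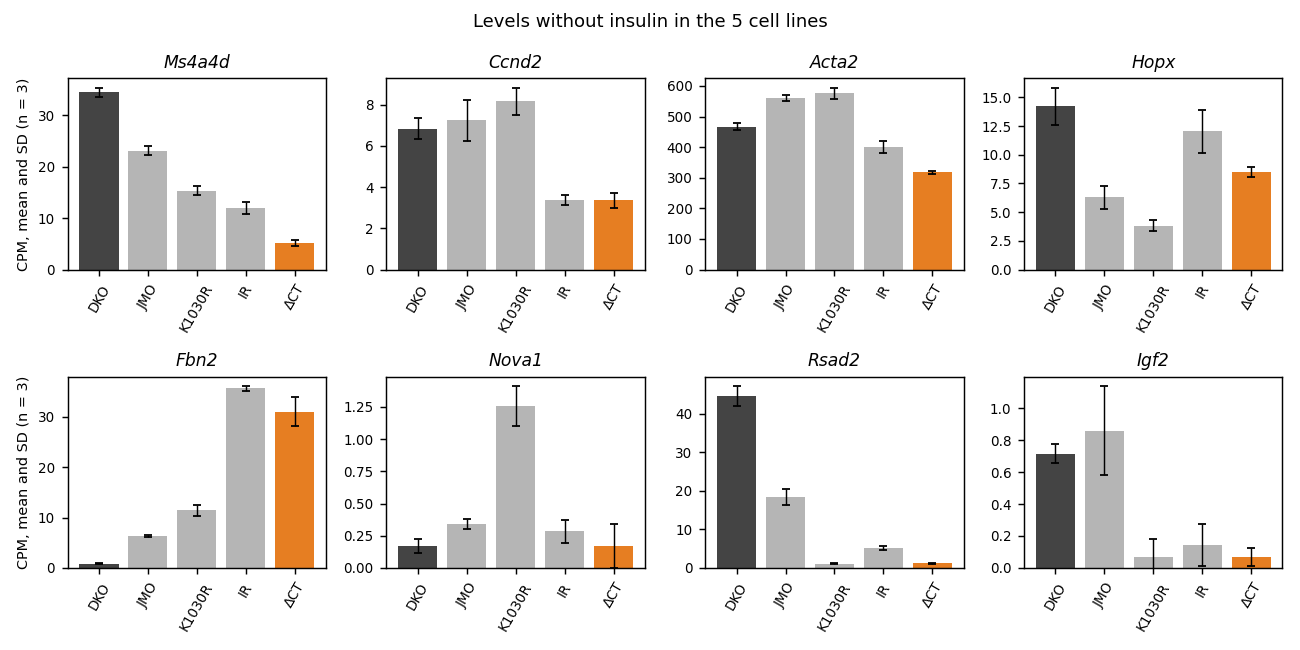
Mean CPM with SD over 3 basal libraries (vertical axes, starting at 0) in the 5 lines for the 6 genes called between ∆CT and K1030R and for *Rsad2* and *Igf2*, with DKO in black and ∆CT in orange. *Ms4a4d* is lowest in ∆CT, *Ccnd2* has near-equal means in ∆CT and IR, and *Fbn2* is lowest in DKO.

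Against JMO, 693 genes (4.50%) were called, 166 higher (1.08%) and 527 lower (3.42%) in ∆CT. By list, 45 of 52 interferon-stimulated effectors, 15 of 17 complement and acute-phase genes and 13 of 23 antigen presentation genes were lower than in JMO. Cholesterol synthesis had 13 of 35 genes called higher than in JMO, against 1 called higher than in DKO. *Hmgcs1* was at 1086 ± 38.6 CPM in ∆CT, 667 ± 8.87 in DKO and 545 ± 38.6 in JMO. *C3* was at 21.1 ± 4.78 CPM in ∆CT, 519 ± 24.2 in DKO and 812 ± 54.3 in JMO, and *Lcn2* was at 2.22 ± 0.276, 54.8 ± 1.04 and 131 ± 3.85 CPM. For *C3* and *Lcn2* the JMO level was the highest of the 3 lines, and for *Hmgcs1* the lowest. *Insr* was at 78.4 ± 3.61 CPM in ∆CT and 71 ± 2.82 CPM in JMO, with IR at 67.7 ± 1.7 and K1030R at 71.1 ± 5.23.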

How the data were processed

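RNA from 26 samples of 5 lines was sequenced. The authors trimmed reads with fastp, used kallisto on mouse Ensembl transcripts and derived gene-level values by tximport. The deposited values are expected counts, which were rounded to whole numbers. No versions or build were taken from those steps. All 26 libraries, each mapped to a group by its label, entered 1 edgeR (4.0.16, R 4.3.3) quasi-likelihood fit over groups after TMM scaling. Genes needed more than 0.5 CPM in at least 4 libraries. Calls used a minimum fold of 1.5 (glmTreat) and an adjusted p threshold of 0.05, and a second test had no minimum fold. CPM are TMM-scaled and not per length, so words on how abundant or scarce a gene is beside others refer to CPM alone. Named genes were *Insr* and *Igf1r*, the 12 largest called changes each way with at least 1 CPM, more than 3 counts in each line, no overlap and no provisional (Gm, Rik, AC or BC) symbol, key and leading members of each gene list, genes at 0 counts in a line, and members of counts of 5 or fewer. *Mx1*, *Iigp1*, *Ndnf* and the other genes outside those sets were chosen after their values were seen. Members and lists were chosen with earlier results of these data known. Alternatives used other scaling, filters, libraries, DESeq2 1.42.0, limma 3.58.1, a replicate block and leaving out each library. Scripts were tested on simulated data. Counting intervals cover counting error only. Depth is given in the text. Promoter sequences came from RefSeq (GRCm38.p6). Some genes of the lists are not reported here.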

Additional observations from a re-analysis of the deposited data

Results flagged for a closer look

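The 6 genes that differed between ∆CT and K1030R are listed because the difference between the lines was itself tested, in the edgeR fit against a minimum of 1.5-fold. The log2 difference, ∆CT minus K1030R, was -2.87 for *Nova1*, -1.59 for *Ms4a4d*, -1.27 for *Ccnd2* and -0.86 for *Acta2*, which were lower in ∆CT. It was 1.16 for *Hopx* and 1.43 for *Fbn2*, which were higher in ∆CT.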

How the results depend on the processing

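Of 126 recomputed counts of genes over all comparisons 115 stayed within 1.5 times the value reported. Leaving out 1 library gave 332 to 361 genes higher and 548 to 605 lower than in DKO at the minimum fold, 3202 to 3344 and 3183 to 3326 without it, 617 to 693 different from JMO, 5 or 6 from K1030R and 54 to 177 from IR. The count against IR was 54 without ∆CT replicate 1, 59 without ∆CT replicate 2 and 177 without ∆CT replicate 3. It was 208 with no filter, 32 with the libraries of both groups alone and 33 at an adjusted p of 0.001. The count against K1030R was 51 with no filter and 3 with DESeq2. At an adjusted p of 0.001 without a minimum fold, 2039 genes were higher and 2193 lower. Causes were not tested, except that a stricter threshold calls fewer genes. Residuals over all genes correlated at 0.0186, -0.017 and 0.0608 for same-numbered libraries, and from -0.0914 to 0.0797 for differently numbered ones. Some lists nevertheless followed the replicate number in both lines. Immediate-early sums fell from replicate 1 to replicate 3, and interferon-stimulated sums were highest in replicate 3. Whether the replicate numbers pair the samples was therefore not settled. With the replicate block 977 genes were called, 963 of them shared, and with the block on 2 groups alone 915 against DKO and 16 against IR. Signs turned in 6 genes that did not pass the test, with values on the log2 scale. Of these *Ldha* passed it without ∆CT replicate 3 (0.1597, adjusted p = 0.0456). *Pparg* was -0.0042 with RLE scaling, -0.0387 with library totals, -0.0015 with the filter of 10 counts, -0.0039 with DESeq2, -0.0085 with limma, -0.0038 with 2 groups, -0.0061 with 15 libraries, -0.0104 with the block on 2 groups alone, and from -0.0821 to 0.0885 when each library was left out in turn. *Nova1* was -0.027 with library totals, -0.3157 with limma and from -1.1102 to 0.461 with each library left out. With each library left out, *Axin2* ran from -0.208 to 0.1483, *Cdkn1a* from -0.0553 to 0.0231, *Fas* from -0.067 to 0.0038 and *Ldha* from -0.0243 to 0.1597.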

Other observations

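Among windows of 20 neighbouring tested genes, chosen after their values were seen, the lowest median log2 difference was -1.95, on chromosome 1 between 172630764 and 175692901 (coordinates as in the gene annotation of GRCm38.p6), where 12 of 20 genes were called lower. This stretch holds the Ifi200 genes *Ifi205*, *Mndal* and *Aim2*. On chromosome 11 between 46055992 and 49263030 the median was -1.32 with 10 lower. The highest was 0.82, among protocadherin genes on chromosome 18, with 7 higher and 0 lower. On chromosome 17 between 35916434 and 36272247, among class I genes, the median was -1.11 with 9 lower. On chromosome 12 between 103388682 and 105685211, which includes *Serpina3n*, it was -0.64 with 9 lower. Neighbouring gene family members may share reads.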
